A study of Mus musculus with 40 samples.

Results

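*Slc25a48*, *Gimd1* and *Lamb3* are described here across the libraries of a mouse study of small bowel resection (SBR). The 3 genes were chosen from 15958 genes in the table because they changed clearly in the post-anastomotic ileum, the bowel just beyond the join, after SBR. RNA was sequenced from 40 libraries of wild type male C57BL/6 mice operated on at 8 weeks of age. Sham mice given vehicle had their bowel cut and rejoined, with none removed, SBR mice given vehicle lost 50 to 60% of the small bowel per the labels (the study's methods state a larger proximal share), and further SBR mice received WUSTL0717, a compound made as a gut-restricted agonist of the liver X receptor, at 30 mg/kg daily for 7 weeks from week 3 after surgery. The ileum and the duodenum each gave 3, 4 and 4 libraries in this order, and the liver gave 5, 8 and 5. None of these libraries came from sham mice given WUSTL0717. Whether ileal, duodenal and liver libraries came from the same mice was not stated, nor whether any mice were pooled.

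Each of the 3 genes belongs to a different part of cell biology. *Slc25a48* encodes a carrier of the mitochondrial inner membrane of the SLC25 family, which takes part in the import of choline into mitochondria, where choline is oxidised to betaine. *Lamb3* encodes the beta chain of laminin-332, which is assembled with the alpha chain of *Lama3* in the basement membrane and is bound by the integrin made of *Itga6* and *Itgb4* in hemidesmosomes, the junctions that fasten epithelial cells to their matrix. *Gimd1* encodes a protein with a GTPase domain of the GIMAP type. After loss of proximal bowel the remaining ileum adapts, with longer villi and greater uptake of nutrients.

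In the files' build, GRCm38, *Slc25a48* (ENSMUSG00000021509) lies at chr13:56438355-56474239 on the plus strand, with 1 transcript of 8 exons in GENCODE M21. *Gimd1* (ENSMUSG00000091721) lies at chr3:132629820-132645351 on the plus strand, with 5 transcripts. *Lamb3* (ENSMUSG00000026639) lies at chr1:193207699-193343878 on the plus strand, with 9 transcripts. Its longest annotated extent covers *Hsd11b1* and *G0s2*, which lie on the opposite strand. Whether reads were counted by strand is not given in the sources used here, so the share of reads of *Lamb3* and of these 2 genes that could not be assigned is unknown. The 250 bases before 1 annotated start of each gene, on the plus strand of GRCm38 and taken from RefSeq, are shown because 2 of the genes were higher and 1 lower in the same ileal libraries. The start with the lowest coordinate was used for *Gimd1*, which has 3 windows in the RefSeq table, and for *Lamb3*, which has 2 and whose window lies inside the longest extent given by GENCODE. The windows are chr13:56438105-56438354 for *Slc25a48*, chr3:132629596-132629845 for *Gimd1* and chr1:193301744-193301993 for *Lamb3*, and capitals mark any match to 1 of 6 motifs.
Slc25a48: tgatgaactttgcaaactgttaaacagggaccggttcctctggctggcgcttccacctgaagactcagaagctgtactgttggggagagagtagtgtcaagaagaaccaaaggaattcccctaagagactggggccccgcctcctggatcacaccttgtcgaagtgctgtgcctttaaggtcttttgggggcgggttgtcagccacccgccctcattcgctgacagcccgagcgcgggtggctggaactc
Gimd1: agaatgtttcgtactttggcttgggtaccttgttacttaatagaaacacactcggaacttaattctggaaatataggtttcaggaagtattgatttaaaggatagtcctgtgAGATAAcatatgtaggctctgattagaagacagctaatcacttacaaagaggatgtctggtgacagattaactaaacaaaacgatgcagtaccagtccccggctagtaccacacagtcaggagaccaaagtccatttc
Lamb3: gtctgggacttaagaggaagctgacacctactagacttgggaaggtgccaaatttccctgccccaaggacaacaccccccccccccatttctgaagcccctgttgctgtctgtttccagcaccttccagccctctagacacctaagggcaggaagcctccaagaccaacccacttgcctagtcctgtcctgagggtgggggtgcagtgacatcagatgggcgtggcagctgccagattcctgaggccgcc
The motifs searched on both strands were TGANTCA of the AP-1 type, AGATAA of the GATA type, TTTATG of the CDX type, AGGTCA of the nuclear receptor half-site, TATAAA of the TATA box and CCAAT. The window of *Gimd1* held 1 match, AGATAA, starting 138 bases before the annotated start, and 9.99% of the 32851 RefSeq windows of this length held that motif. The windows of *Slc25a48* and *Lamb3* held none of the 6 motifs, whose shares over all windows ran from 6.75% for TGANTCA to 33.8% for CCAAT. Guanine and cytosine made up 39.6% of the *Gimd1* window, 56.4% of the *Slc25a48* window and 58.8% of the *Lamb3* window, against a median of 52.4% over all windows.

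Values are log2 TPM, transcript abundance scaled for gene length, after a batch correction by the authors, and a difference of 1 is a 2-fold change on the scale of these values. No read totals came with the table, so the depth behind each value is unknown. In bulk tissue, fewer cells of a type and less RNA per cell cannot be told apart. Libraries of 1 group correlated with a median r of 0.83 to 0.91 in the intestine and 0.97 to 0.98 in the liver. Ileal enterocyte markers (*Fabp6*, *Slc10a2*, *Slc51a* and *Slc51b*, 4 of 4 in the table) summed to between 7.03 and 9.24 in ileal libraries and between 3.67 and 4.87 in duodenal ones, on the log2 scale, so the 2 regions were distinct. The labels put intestinal and liver libraries in separate batches. In the corrected values 99.4% of genes have liver and intestinal means within 1 of each other, and the intestinal gene *Sis* stands at 4.74 to 4.76 in every liver library, so levels and sizes of differences in liver were not set against those in the intestine.

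*Slc25a48* was higher in every resected ileum than in any sham ileum. In the 3 sham ileal libraries it stood at 2.11, 2.52 and 2.82, with a mean of 2.48 ± 0.36 (SD, n = 3). In the 4 libraries of SBR vehicle mice it stood at 5.57, 5.12, 5.52 and 5.83, with a mean of 5.51 ± 0.29 (SD, n = 4). Every resected library lay above every sham library, with a gap of 2.30 between the nearest values. The means differed by 3.02 on the log2 scale, or 8.13-fold, and this difference is a description without a test, because it chose the gene. In SBR mice given WUSTL0717 the values were 5.29, 5.68, 5.23 and 4.86, with a mean of 5.26 ± 0.34 (SD, n = 4), again all above sham, as 9.46% of genes were in this group, while 3.73% were all below.

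*Gimd1* was lower in every resected ileum than in any sham ileum. The sham ileal libraries stood at 4.00, 4.26 and 4.13, with a mean of 4.13 ± 0.13 (SD, n = 3). The SBR vehicle libraries stood at 1.43, 1.25, 1.00 and 0.85, with a mean of 1.13 ± 0.26 (SD, n = 4). No library of the 2 groups overlapped, and the nearest values were 2.57 apart. The difference was -3.00, or 7.99-fold lower, and is likewise given without a test. In SBR mice given WUSTL0717 the values were 0.67, 0.62, 0.71 and 1.38, with a mean of 0.85 ± 0.36 (SD, n = 4), which makes this group the lowest of the 6 intestinal groups.

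*Lamb3* was, like *Slc25a48*, higher after SBR. It stood at 2.19, 1.80 and 2.17 in sham libraries, with a mean of 2.06 ± 0.22 (SD, n = 3). It stood at 4.66, 4.41, 4.57 and 5.02 in SBR vehicle libraries, with a mean of 4.67 ± 0.26 (SD, n = 4). The nearest values were 2.21 apart and the means differed by 2.61, or 6.10-fold, again without a test. With WUSTL0717 the values were 4.48, 5.23, 4.72 and 4.53, with a mean of 4.74 ± 0.34 (SD, n = 4), and all lay above sham.

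**Figure D1:**
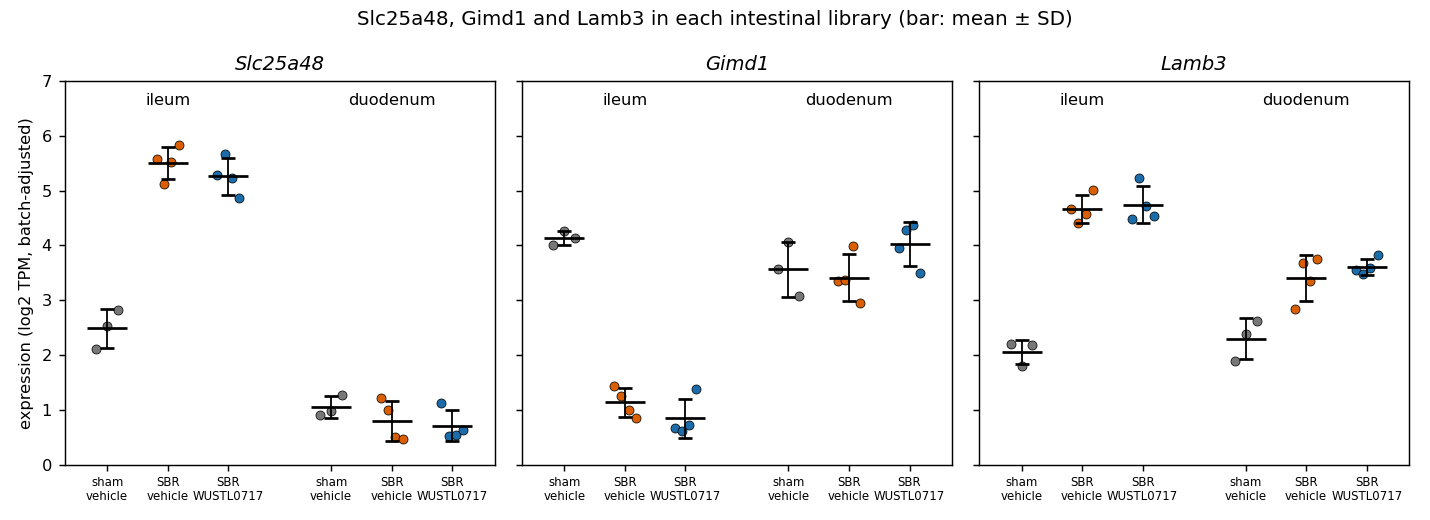
Expression of *Slc25a48*, *Gimd1* and *Lamb3* (log2 TPM, batch-adjusted, vertical axis) in each ileal and duodenal library by group, with 1 point a library and bars for the mean ± SD. In the ileum the SBR groups lie apart from sham for all 3 genes, and in the duodenum only *Lamb3* does.

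Over all genes, SBR vehicle and sham ileal libraries did not overlap in 6.73% of the 15772 tested genes with SBR higher and in 2.77% with SBR lower. By limma with Benjamini-Hochberg adjustment, 0.349% of tested genes, 55 in number, passed an adjusted p of 0.05. That number was 3 to 38 leaving out 1 library, the fewest without sham replicate 2, and 5 to 279 under other settings. Since the 3 genes were chosen on this comparison, nothing is read from their standing in it. They were the first 3 of the table by limma's p, and the next genes in that order, just outside the choice, were *Hsd17b7*, a gene of sterol synthesis with a difference of 2.63, and *Suox*, the sulfite oxidase gene, with 2.13. By size alone *Slc25a48* was the third highest difference, *Lamb3* the 14th highest and *Gimd1* the fifth lowest. SBR WUSTL0717 mice differed from the same sham libraries by 2.78 for *Slc25a48*, -3.29 for *Gimd1* and 2.68 for *Lamb3*, and this comparison shares its controls with the one that chose the genes.

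WUSTL0717 against vehicle after SBR is a separate question, asked within resected mice. The ileal libraries of both groups took part in choosing the genes, so the differences are a description without a test. The 4 libraries of each group overlapped for all 3 genes. The means differed by -0.25 for *Slc25a48*, by -0.29 for *Gimd1* and by 0.08 for *Lamb3*, and the SDs within these groups were 0.26 to 0.36. The sign of the *Lamb3* difference turned under quantile normalization and under library weights.

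The duodenum lies before the resected bowel and was kept in the operation, and its libraries had no part in choosing the genes. *Slc25a48* stood there at 0.90, 0.97 and 1.28 in sham, at 1.21, 0.99, 0.51 and 0.46 in SBR vehicle and at 1.13, 0.52, 0.54 and 0.64 in SBR WUSTL0717 mice. The groups overlapped. The mean over the 11 libraries, 0.83, was below the minimum of 1 set for testing, so no limma test was run with that filter. The SBR vehicle and sham means differed by -0.26 (exact permutation p = 0.343), and the median gene of the duodenum differed by -0.36 in the same comparison. SBR WUSTL0717 and SBR vehicle means differed by -0.09 (exact permutation p = 0.857).

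*Gimd1* in the duodenum of resected mice overlapped that of sham mice. The values were 3.56, 4.07 and 3.07 in sham, 3.36, 3.36, 3.98 and 2.95 in SBR vehicle and 3.95, 4.29, 4.37 and 3.50 in SBR WUSTL0717 mice. All 3 groups overlapped. SBR vehicle differed from sham by -0.15 (SE 0.39, interval -1.01 to 0.70, limma adjusted p = 0.856, exact permutation p = 0.657), and the sign turned when each library was centred on its median. SBR WUSTL0717 differed from sham by 0.46 (interval -0.40 to 1.32, limma adjusted p = 0.552) and from SBR vehicle by 0.61 (interval -0.18 to 1.41, limma adjusted p = 1, exact permutation p = 0.0857), a comparison in which 0.258% of genes passed the adjusted test.

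*Lamb3* was higher in every duodenal library of resected mice than in sham, but did not pass the adjusted test. The values were 1.88, 2.38 and 2.63 in sham and 2.83, 3.68, 3.34 and 3.76 in SBR vehicle mice. The 2 groups did not overlap, with a gap of 0.21, which was true with SBR higher of 3.41% of 15093 tested genes. The means, 2.30 ± 0.38 (SD, n = 3) and 3.40 ± 0.42 (SD, n = 4), differed by 1.11 (SE 0.35, 95% interval 0.35 to 1.86, limma p = 0.00748, adjusted p = 0.274, exact permutation p = 0.0571). No gene passed limma's adjusted threshold in this comparison (0% called), where 2426 genes had an unadjusted p under 0.05, and other settings of the same fit called from 0 to 2497 genes, the most with library weights. The median difference over all genes was -0.36, so relative to it *Lamb3* stood at 1.47.

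The libraries of SBR mice given WUSTL0717 gave a further set of values for *Lamb3* against the same sham duodenum. They stood at 3.56, 3.48, 3.58 and 3.83, with a mean of 3.61 ± 0.15 (SD, n = 4), and all lay above sham by at least 0.85. The share of tested genes with such a separation and WUSTL0717 higher was 5.58%. The difference was 1.31 (SE 0.35, interval 0.56 to 2.06, limma adjusted p = 0.125, exact permutation p = 0.0286, the smallest that 4 against 3 libraries can give), and 0.802% of genes passed the adjusted test. This comparison shares its controls with the last. SBR WUSTL0717 and SBR vehicle overlapped and differed by 0.21 (interval -0.49 to 0.90, limma adjusted p = 1, exact permutation p = 0.457). Leaving out replicate 1 of the duodenal SBR vehicle group, the lowest of its 4 *Lamb3* values, gave an SBR difference of 1.30 (limma adjusted p = 0.04997). Library weights gave 1.28 (limma adjusted p = 0.0243). These were the 1 of 7 left-out libraries and the 1 of 11 other settings that passed, with limma adjusted p up to 0.525 and 0.507 in the rest. The same 2 fits called 589 and 2497 genes, where the main fit called 0.

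Summed markers of other cell types in the duodenum are given on the log2 scale beside these values, and by limma none of the tested genes of the lists named here was called in SBR vehicle against sham. Enterocyte markers (5 of 5 in the table) were 9.94 to 12.39 in sham, 12.62 to 13.57 in SBR vehicle and 13.15 to 14.17 in SBR WUSTL0717 libraries. This sum is mostly *Apoa1*, an apolipoprotein gene (mean 12.99 in SBR vehicle), and the markers did not all separate. *Vil1*, *Alpi* and *Apoa1* were higher without overlap in SBR vehicle than in sham, as were 3.41% of all tested genes, while *Fabp2* and *Sis* overlapped. With WUSTL0717 *Vil1* and *Sis* overlapped sham. Stem cell markers (4 of 4 in the table) were 4.14 to 4.40, 2.40 to 4.07 and 2.98 to 4.07 in the same order. Myeloid markers (4 of 4) were 7.48 to 9.32, 5.58 to 7.29 and 6.11 to 7.56. Paneth cell markers (5 of 5) were 6.47 to 7.28, 4.82 to 5.63 and 4.88 to 6.34. B or plasma cell markers (3 of 5) were 8.86 to 9.31, 7.28 to 8.76 and 6.72 to 8.08. Pancreatic acinar markers (4 of 5, *Prss1* not being listed) varied between 4.22 and 10.17 over the duodenal libraries, against 1.42 to 2.02 in the ileum. In SBR WUSTL0717 against sham, where 0.749% of genes were called higher and 0.053% lower, 1 enterocyte marker, *Fabp2* (the intestinal fatty acid binding protein), was called higher, with a difference of 3.45 (SE 0.66, limma adjusted p = 0.0348), and 1 Paneth cell marker, *Ang4* (an angiogenin), lower, with -1.57 (SE 0.30, limma adjusted p = 0.0365). Both were named after their values were seen. The part of these cell types in the *Lamb3* result was not tested.

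**Figure D2:**
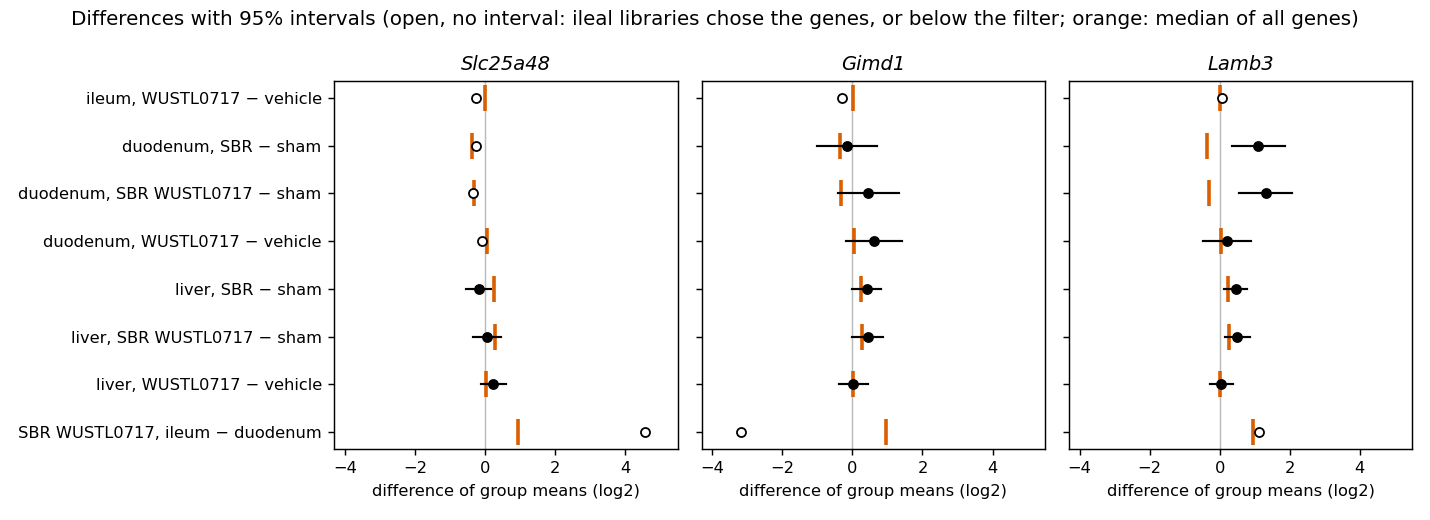
Differences of group means (log2, horizontal axis) for *Slc25a48*, *Gimd1* and *Lamb3* in 8 comparisons, with filled points and 95% intervals of limma where a test was given, open points without an interval where the ileal libraries had chosen the genes or, for *Slc25a48* in the duodenum, the level was under the filter, and an orange mark for the median of all tested genes. In the comparison of ileum with duodenum *Slc25a48* (4.55) and *Gimd1* (-3.18) lie far from the orange mark (0.95), and *Lamb3* (1.13) lies close to it.

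Over the 6 intestinal groups, *Slc25a48* was ordered ileum SBR vehicle (5.51), ileum SBR WUSTL0717 (5.26), ileum sham (2.48), duodenum sham (1.05), duodenum SBR vehicle (0.79) and duodenum SBR WUSTL0717 (0.71). The libraries of ileum SBR WUSTL0717 and ileum sham, and those of ileum sham and duodenum sham, did not overlap, and the other neighbours did. *Gimd1* was highest in the sham ileum (4.13), followed by the duodenum of SBR WUSTL0717, sham and SBR vehicle mice, and each of these neighbours overlapped. A step of 2.28 then separated the duodenum of SBR vehicle mice from the ileum of SBR vehicle mice, with no overlap. *Lamb3* was ordered ileum SBR WUSTL0717 (4.74), ileum SBR vehicle (4.67), duodenum SBR WUSTL0717 (3.61), duodenum SBR vehicle (3.40), duodenum sham (2.30) and ileum sham (2.06). Its breaks without overlap came after the ileum SBR vehicle group and after the duodenum SBR vehicle group.

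The regions were compared in mice given SBR and WUSTL0717. Their ileal values took part in choosing the genes, so these differences are also without a test. The median gene was higher in the ileum than in the duodenum by 0.95. *Slc25a48* was higher in the ileum by 4.55, or by 3.61 relative to the median gene. *Gimd1* was lower in the ileum, with a difference of -3.18, or of -4.12 relative to the median gene. For each of the 3 genes the 4 ileal and 4 duodenal libraries did not overlap, which held with the ileum higher in 41.4% of 15923 genes and with the ileum lower in 6.37%.

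*Lamb3* was higher in the ileum by 1.13, but by 0.19 relative to the median gene, and with each library centred on its median the difference was 0.25. Among sham mice, where the median gene was higher in the ileum by 0.52, *Slc25a48* was already higher in the ileum than in the duodenum (2.48 against 1.05) with no overlap, as was true of 30.8% of genes, whereas *Gimd1* (4.13 against 3.57) and *Lamb3* (2.06 against 2.30) overlapped between the regions.

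The effects of WUSTL0717 against vehicle in the ileum and in the duodenum stand side by side, again without a test, because the ileal libraries are those that chose the genes. The difference of effects, ileum minus duodenum, was -0.16 for *Slc25a48*, -0.90 for *Gimd1* and -0.13 for *Lamb3*.

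**Figure D3:**
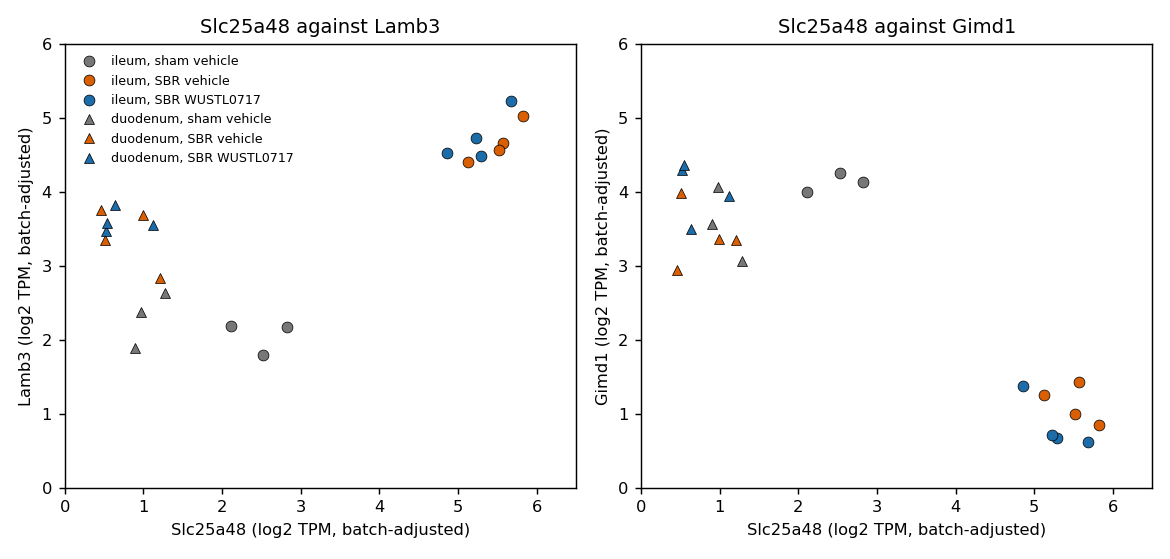
*Slc25a48* (horizontal axis, log2 TPM) against *Lamb3* and against *Gimd1* (vertical axes, log2 TPM) in the 22 intestinal libraries, with circles for ileum, triangles for duodenum and colour for the group. The 8 ileal SBR libraries form a set of their own at *Slc25a48* of 4.86 or more, apart from the 3 sham ileal libraries and from the 11 duodenal libraries, where *Slc25a48* is at most 1.28.

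The liver was measured for contrast. *Slc25a48* had a lowest, median and highest value of 2.73, 3.71 and 3.90 in sham (n = 5), 3.08, 3.26 and 3.76 in SBR vehicle (n = 8) and 3.33, 3.58 and 3.80 in SBR WUSTL0717 mice (n = 5). The groups overlapped, and SBR vehicle differed from sham by -0.18 (SE 0.17, interval -0.54 to 0.18, limma adjusted p = 0.414, exact permutation p = 0.383). The median gene of the liver was higher after SBR by 0.25 and 41.9% of 15901 genes passed the adjusted test. Relative to the median gene *Slc25a48* stood at -0.43, and with each library centred on its median the difference was -0.49 (limma adjusted p = 0.00727). The lowest *Slc25a48* value of sham livers came from replicate 2, which also had the lowest library median of all livers, 3.06, and without it the difference was -0.38 (limma adjusted p = 0.0453). Leaving out each library passed in 1 of 13 fits and other settings in 2 of 11, with limma adjusted p up to 0.727 and 0.682. Such fits called 5399 to 9010 and 4180 to 10462 genes.

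*Gimd1* in the liver had a lowest, median and highest value of 2.54, 2.76 and 3.30 in sham, 2.19, 3.38 and 3.58 in SBR vehicle and 3.02, 3.32 and 3.49 in SBR WUSTL0717 mice. SBR vehicle overlapped sham and differed from it by 0.40 (SE 0.19, interval 0.00 to 0.81, limma adjusted p = 0.0992, exact permutation p = 0.124). Replicate 2 of the SBR vehicle livers, at 2.19, lay apart from the other 7, which stood between 3.33 and 3.58. Without it the difference was 0.56 (limma adjusted p = 0.000966), and relative to the median gene the difference over all 8 was 0.16. That was the 1 of 13 left-out libraries whose fit passed, in fits that called 5399 to 9010 genes. Of 11 other settings 1 passed, with differences from 0.08 to 0.62 and limma adjusted p up to 0.697.

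*Lamb3* in the liver had a lowest, median and highest value of 3.05, 3.61 and 3.65 in sham, 3.60, 3.92 and 4.37 in SBR vehicle and 3.62, 4.07 and 4.39 in SBR WUSTL0717 mice. It was higher after SBR by 0.45 (SE 0.15, interval 0.14 to 0.77, limma adjusted p = 0.0217, exact permutation p = 0.0117), in groups that overlapped by 0.05, where 37.4% of all genes were called higher. Relative to the median gene the difference was 0.21, and centring each library on its median gave 0.15 (limma adjusted p = 0.357). Without sham replicate 2 it was 0.34 (limma adjusted p = 0.0875). SBR WUSTL0717 livers differed from sham by 0.50 (limma adjusted p = 0.0325, where 27.9% of genes were called higher), or 0.23 relative to the median gene. Cholangiocyte markers (4 of 4 in the table), which mark bile duct cells that make laminins, summed to 5.87 to 7.28 in sham, 8.29 to 9.32 in SBR vehicle and 7.44 to 8.66 in SBR WUSTL0717 livers, and their part in the *Lamb3* difference was not tested.

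WUSTL0717 against vehicle in resected livers gave differences of 0.23 for *Slc25a48* (interval -0.13 to 0.59, limma adjusted p = 0.559), 0.03 for *Gimd1* (interval -0.38 to 0.43, limma adjusted p = 0.969) and 0.05 for *Lamb3* (interval -0.27 to 0.37, limma adjusted p = 0.929). None passed the test, which 4.1% of genes did, and the groups overlapped for each gene. Replicate 7 of the SBR vehicle livers held summed pancreatic acinar markers at 11.40, against 4.78 to 5.12 in sham and 4.49 to 4.84 in SBR WUSTL0717 livers and 4.34 to 4.96 in the other 7 of its group, and its values of the 3 genes lay within the range of its group.

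**Figure D4:**
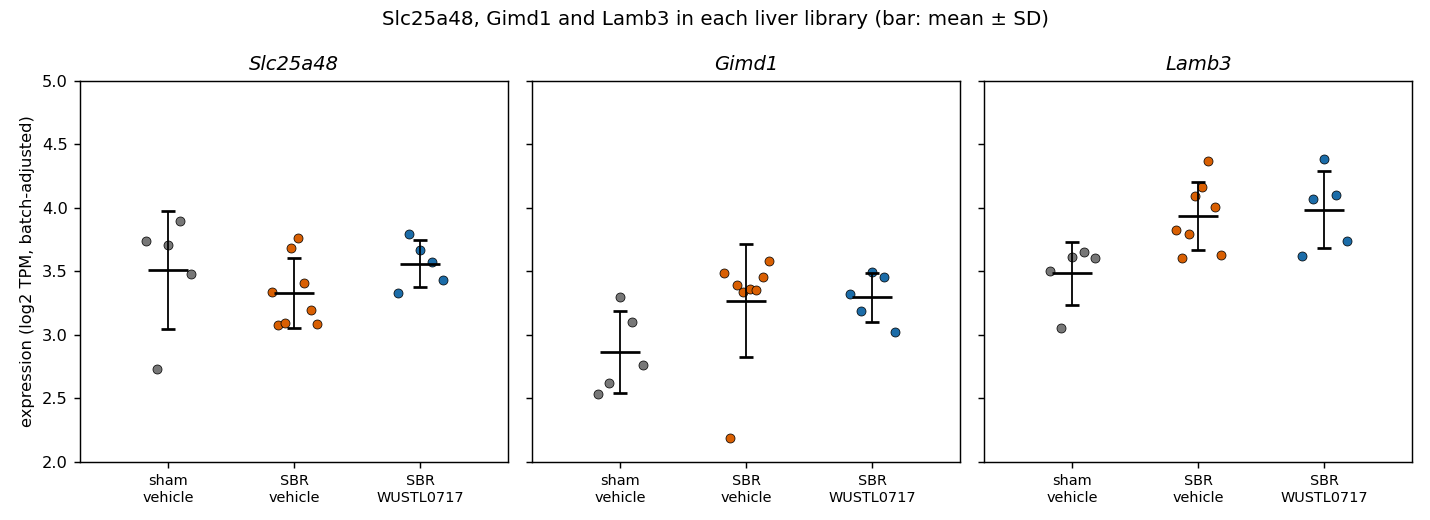
Expression of *Slc25a48*, *Gimd1* and *Lamb3* (log2 TPM, batch-adjusted, vertical axis, which starts at 2) in each liver library by group, with 1 point a library and bars for the mean ± SD. The groups overlap for each gene, and 1 SBR vehicle library stands apart for *Gimd1* at 2.19.

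The partners of *Lamb3* in laminin-332 and in hemidesmosomes did not pass the test in the ileum in either SBR group against sham. Of 9 genes listed, 8 were in the table and tested (*Col17a1* was not), and none was called in the ileum after SBR, where 7 were higher and 1 lower, with a median difference of 0.52 against 0.07 over all genes. *Lama3*, the alpha chain, stood at 2.91 ± 0.33 (SD, n = 3) in sham and 3.10 ± 0.27 (SD, n = 4) in SBR vehicle ileum, a difference of 0.19 (SE 0.24, limma adjusted p = 0.967), and the groups overlapped. In SBR WUSTL0717 ileum it stood at 3.64 ± 0.06 (SD, n = 4), above every sham library, as 9.46% of genes did, with a difference of 0.73 (SE 0.24, limma adjusted p = 0.177).

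The integrin subunits that bind laminin-332 had groups that did not overlap in the ileum after SBR, with SBR higher, as was true of 6.73% of genes, but did not pass the adjusted test. *Itga6* stood at 4.80 ± 0.12 (SD, n = 4) against 3.97 ± 0.17 (SD, n = 3) in sham, a difference of 0.82 (SE 0.24, limma adjusted p = 0.226). *Itgb4* stood at 5.15 ± 0.43 (SD, n = 4) against 4.43 ± 0.13 (SD, n = 3), a difference of 0.72 (SE 0.29, limma adjusted p = 0.475). In the duodenum *Itga6* was likewise higher without overlap in SBR vehicle than in sham, as were 3.41% of genes, with a difference of 0.97 (SE 0.35, limma adjusted p = 0.274), and none of the 8 genes was called. With WUSTL0717 against vehicle in the ileum, *Lama3* had a difference of 0.54 (SE 0.23, limma adjusted p = 0.691) and *Itga6* one of -0.64 (SE 0.22, limma adjusted p = 0.580).

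In the liver after SBR, 7 of these 8 partners were called higher, as were 37.4% of genes, and 1, *Lama3*, lower, as were 4.47%, with a median difference of 0.94 against 0.25 over all genes. Fibroblast markers (4 of 4 called higher) summed to 5.69 to 6.36 in sham, 8.00 to 8.89 in SBR vehicle and 7.01 to 8.10 in SBR WUSTL0717 livers, and cholangiocyte markers (given above) were 4 of 4 called higher too. The part of these cells in the laminin values was not tested. *Lama3* stood at 2.14 ± 0.24 (SD, n = 8) after SBR against 3.00 ± 0.23 (SD, n = 5) in sham livers. Other laminins and basement membrane genes (13 of 13 tested) gave 0 calls in the ileum after SBR by limma, with 1 at an unadjusted p under 0.05, 11 higher and a median of 0.58. The leading gene was *Lama1*, the alpha chain of laminin-111, at 2.71 ± 0.27 (SD, n = 4) against 1.42 ± 0.12 (SD, n = 3), a difference of 1.30 (SE 0.27, limma adjusted p = 0.0757). In SBR WUSTL0717 against the same sham libraries *Lama1* was the 1 of the 13 called, with a difference of 1.38 (SE 0.27, limma adjusted p = 0.0235), where 1.66% of genes were called higher. *Lamb1*, the beta chain that laminin-111 uses where laminin-332 uses that of *Lamb3*, differed by 0.70 (SE 0.33, limma adjusted p = 0.622). In the duodenum 11 of the 13 were lower, with a median of -0.45 against -0.36 over all genes, and *Lamc3*, a gamma chain, differed by -1.71 (SE 0.45, limma adjusted p = 0.245).

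**Figure D5:**
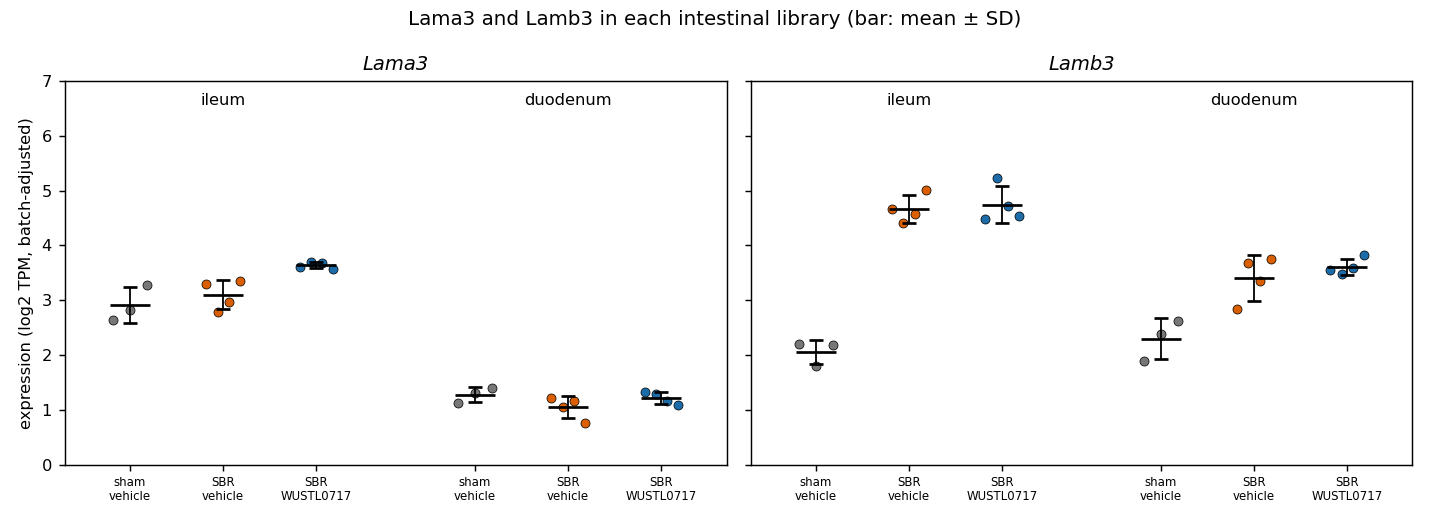
Expression of *Lama3* and *Lamb3*, which encode chains of laminin-332 (log2 TPM, batch-adjusted, vertical axis), in each ileal and duodenal library by group, with bars for the mean ± SD. In the ileum *Lamb3* separates sham from both SBR groups, while *Lama3* overlaps between SBR vehicle and sham and lies above sham in SBR WUSTL0717.

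Genes around *Slc25a48* in choline use gave no call in the ileum of SBR vehicle mice and 1 call in SBR WUSTL0717 mice against sham. Of 14 genes of choline transport and oxidation, 12 were in the table and tested, and by limma 0 passed after SBR, with 2 at an unadjusted p under 0.05, 8 higher, 4 lower and a median of 0.40. *Chdh*, the mitochondrial dehydrogenase that starts the oxidation of choline, stood at 7.16 ± 0.54 (SD, n = 3) in sham and 7.09 ± 0.80 (SD, n = 4) in SBR vehicle ileum, a difference of -0.07 (SE 0.43, limma adjusted p = 0.996). *Dmgdh*, the dimethylglycine dehydrogenase of the same route, differed by 1.36 (SE 0.42, limma adjusted p = 0.281) in groups that did not overlap, as was true with SBR higher of 6.73% of genes. *Bhmt*, which uses betaine to remethylate homocysteine, differed by 1.82 (SE 0.86, limma adjusted p = 0.615). *Flvcr2*, a choline transporter of the plasma membrane, differed by 0.95 (SE 0.38, limma adjusted p = 0.472) in SBR vehicle ileum. It was the gene called in SBR WUSTL0717 ileum against sham, with a difference of 1.65 (SE 0.38, limma adjusted p = 0.0472, against 1.66% of genes called higher), and was also called in the duodenum, with 2.07 (SE 0.37, limma adjusted p = 0.0251), where 0.749% of genes were called higher. Of 7 genes of phosphatidylcholine synthesis, the other main use of choline, 5 were tested and 0 passed, with 1 at an unadjusted p under 0.05. This was *Pcyt1a*, the enzyme that limits the rate of the route, at 3.82 ± 0.69 (SD, n = 4) against 5.46 ± 0.61 (SD, n = 3), a difference of -1.64 (SE 0.58, limma adjusted p = 0.376). In SBR WUSTL0717 ileum against sham the lowest difference of the 5 genes, *Pcyt1a* included, was -0.46, and 0 passed.

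The other SLC25 carriers, relatives of *Slc25a48*, gave no call in the ileum of SBR vehicle mice and 1 call in SBR WUSTL0717 mice against sham. Of 58 names listed, 40 were tested and 0 passed by limma in SBR vehicle against sham, with 10 at an unadjusted p under 0.05, and their differences ran from -1.49 to 2.05 with a median of 0.29. The highest was *Slc25a13*, an aspartate-glutamate carrier, at 5.26 ± 0.78 (SD, n = 4) against 3.21 ± 0.77 (SD, n = 3), a difference of 2.05 (SE 0.50, limma adjusted p = 0.142). The lowest was *Slc25a45*, at 2.53 ± 0.44 (SD, n = 4) against 4.02 ± 0.27 (SD, n = 3), a difference of -1.49 (SE 0.37, limma adjusted p = 0.142). *Slc25a24*, the ATP-magnesium and phosphate carrier, differed by 0.94 (SE 0.30, limma adjusted p = 0.296) in the ileum and by 1.01 (SE 0.31, limma adjusted p = 0.274) in the duodenum. In SBR WUSTL0717 ileum against sham the call was *Slc25a1*, the mitochondrial citrate carrier, with a difference of 1.77 (SE 0.39, limma adjusted p = 0.0407). This was 1 of 40, where 1.66% of all genes were called higher. In the duodenum the same contrast called 2 of 39 carriers higher, where 0.749% of all genes were, namely *Slc25a20*, the carnitine-acylcarnitine carrier, with 2.28 (SE 0.36, limma adjusted p = 0.0142), and *Slc25a34*, with 2.09 (SE 0.34, limma adjusted p = 0.0159). These 3 were named after their values were seen. With WUSTL0717 against vehicle in the ileum 0 of the 40 passed, against 0.0697% of 15772 genes, and 7 had an unadjusted p under 0.05, among them *Slc25a44*, the mitochondrial carrier of branched-chain amino acids, with a difference of 1.23 (SE 0.42, limma adjusted p = 0.582).

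The GIMAP GTPases, which are lymphocyte genes, had lower means in SBR vehicle ileum than in sham, beside the difference of -3.00 of *Gimd1*, but none passed the test. Of 8 listed, 7 were tested, and by limma 0 passed after SBR and 0 had an unadjusted p under 0.05, with differences from -0.85 to -0.07 and a median of -0.62. In SBR WUSTL0717 ileum 6 were lower and 1 higher, with 0 called. *Gimap4* stood at 3.83 ± 1.22 (SD, n = 4) against 4.67 ± 1.08 (SD, n = 3), a difference of -0.85 (SE 0.72, limma adjusted p = 0.901), and *Gimap6* differed by -0.76 (SE 0.62, limma adjusted p = 0.891). T cell markers (4 of 4 in the table) summed to 3.57 to 4.17 in sham, 2.59 to 4.16 in SBR vehicle and 1.91 to 3.45 in SBR WUSTL0717 ileum, and markers of B and plasma cells (3 of 5 in the table) to 7.26 to 8.65, 6.84 to 7.72 and 5.35 to 6.87. In SBR WUSTL0717 ileum against sham 2 of the 3 B and plasma cell genes tested were called lower, *Jchain* (-1.57) and *Igha* (-2.02), named after their values were seen, where 0.514% of genes were. Their part in the *Gimd1* difference was not tested. In the duodenum, where *Gimd1* passed no test, 6 GIMAP genes were tested and all were lower after SBR, with a median of -0.38 against -0.36 over all genes.

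The sum of the ileal enterocyte markers differed between the same ileal groups as the 3 genes. The summed markers stood at 7.03 to 7.33 in sham, 8.68 to 8.99 in SBR vehicle and 8.41 to 9.24 in SBR WUSTL0717 ileum, so that sham did not overlap either SBR group. *Slc10a2*, the bile acid uptake transporter of the ileum, which was not picked by likeness to the 3 genes, was called higher in SBR vehicle ileum, with a difference of 2.02 (SE 0.30, limma adjusted p = 0.0145), where 0.241% of genes were, and in SBR WUSTL0717 ileum, with 1.85 (SE 0.30, limma adjusted p = 0.0104), where 1.66% were. *Fabp6*, the ileal bile acid binding protein, stood at 8.15 ± 0.24 (SD, n = 4) against 6.10 ± 0.24 (SD, n = 3), a difference of 2.05. The markers differed by unlike amounts, with *Slc51a* at 0.69 in the same comparison. Proximal enterocyte markers (4 of 4) summed to 9.72 to 10.26 in sham, 7.07 to 9.82 in SBR vehicle and 9.76 to 10.39 in SBR WUSTL0717 ileum, a sum that is almost all *Fabp1* (mean 9.86 in sham). Others of that list differed from it: *Slc40a1*, the iron exporter, had means of 2.00 in sham and 3.48 in SBR vehicle ileum without overlap, and *Gata4*, a transcription factor of the proximal bowel, stood at 4.68 to 5.05 and 1.42 to 3.77, also without overlap. Over all genes 6.73% separated with SBR vehicle higher and 2.77% with it lower. By limma 0 of the 3 proximal markers tested in the ileum were called in either SBR group against sham. Goblet cell markers (5 of 5) summed to 8.31 to 8.63, 8.95 to 9.31 and 9.15 to 9.65, and *Tff3*, a trefoil peptide, was the 1 of them called, higher in SBR WUSTL0717 against sham by 1.34 (SE 0.29, limma adjusted p = 0.0406). *Slc10a2*, *Slc40a1*, *Gata4* and *Tff3* were named after their values were seen. The part of these cell types in the differences of the 3 genes was not tested.

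The genes most like each of the 3 were found by Pearson's r over the 11 ileal libraries, as a description. These r rest mainly on the gap between the 3 sham and the 8 SBR libraries, and the libraries of a group share its tissue makeup. Since the values of these same libraries picked the genes, their ileal differences between SBR vehicle and sham are a description without a test. *Lamb3* and *Slc25a48* were among each other's 5 closest genes (r = 0.98), and *Gimd1* had r = -0.97 with *Slc25a48* and r = -0.98 with *Lamb3*. With each group's mean removed, the same pairs had r of 0.63, -0.52 and -0.55, and over the 11 duodenal libraries they had r of -0.50, -0.34 and 0.06. At r of 0.95 or more *Slc25a48* had 14 of 15771 genes, *Gimd1* 2 and *Lamb3* 21, and at -0.95 or less they had 2, 17 and 3.

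The 5 named genes closest to *Slc25a48* were *Suox*, *Slc13a1* (the sulfate cotransporter of the brush border), *Lamb3*, *Tmigd1* (an adhesion protein of the enterocyte surface) and *Slc51a* (the alpha subunit of the bile acid exporter), with r of 0.97 to 0.98. *Suox* stood at 6.26 ± 0.05 (SD, n = 3) in sham and 8.40 ± 0.04 (SD, n = 4) in SBR vehicle ileum, a difference of 2.13. *Slc13a1* stood at 1.67 ± 0.17 (SD, n = 3) and 3.57 ± 0.36 (SD, n = 4), a difference of 1.90. In the duodenum r with *Slc25a48* was 0.92 for *Suox*, -0.38 for *Slc13a1*, -0.50 for *Lamb3*, -0.71 for *Tmigd1* and -0.58 for *Slc51a*.

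The 5 closest to *Lamb3* were *Tmigd1*, *Suox*, *Slc51a*, *Slc25a48* and *Fabp6*, with r of 0.98 to 0.99. *Tmigd1* stood at 3.81 ± 0.10 (SD, n = 3) in sham and 5.41 ± 0.13 (SD, n = 4) in SBR vehicle ileum, a difference of 1.60. Over the duodenal libraries *Slc51a* had r = 0.91 and *Tmigd1* r = 0.71 with *Lamb3*, while *Suox* had r = -0.74. *Slc51a* had a difference of 0.69 in the ileum and of 0.35 (SE 0.30, limma adjusted p = 0.539) in the duodenum after SBR, with SBR higher and no overlap in either region, as was true of 6.73% of genes in the ileum, whose libraries picked it, and of 3.41% in the duodenum.

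The 5 closest to *Gimd1* were *Dnase1* (a secreted nuclease), *Kcnj13* (an inward rectifier potassium channel), *Pptc7* (a mitochondrial phosphatase), *Mbl2* (mannose-binding lectin) and *Il33* (an alarmin cytokine), with r of 0.94 to 0.97. *Dnase1* stood at 4.20 ± 0.38 (SD, n = 3) in sham and 1.93 ± 0.27 (SD, n = 4) in SBR vehicle ileum, a difference of -2.26. *Mbl2* stood at 8.06 ± 0.63 (SD, n = 3) and 3.68 ± 0.73 (SD, n = 4), a difference of -4.38. *Il33* had a difference of -1.48, *Pptc7* of -1.15 and *Kcnj13* of -0.96. In the duodenum the r of these 5 with *Gimd1* ran from -0.37 to 0.45. The lowest r of *Slc25a48* were with *Mbl2*, *Gimd1* and *Dnase1*, those of *Lamb3* with *Gimd1*, *Mbl2* and *Dnase1*, and those of *Gimd1* with *Tmigd1*, *Suox* and *Lamb3*.

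Genes beside the 3 on their chromosomes (14 tested) were not called by limma in the ileum in either SBR group against sham. *Cxcl14* and *Lect2*, the nearest tested genes before and after *Slc25a48*, at 141804 and 68225 bases, differed in the ileum after SBR by 0.43 (SE 0.49, limma adjusted p = 0.955) and 1.39 (SE 0.69, limma adjusted p = 0.653). *Aimp1* and *Tbck*, both after *Gimd1* at 15148 and 38793 bases, differed by -0.06 (SE 0.39, limma adjusted p = 0.999) and -0.15 (SE 0.33, limma adjusted p = 0.987). *Hsd11b1* and *G0s2*, which lie within the annotated extent of *Lamb3* on the other strand, differed by 0.83 (SE 0.74, limma adjusted p = 0.913) and 0.68 (SE 0.66, limma adjusted p = 0.935). *Traf3ip3*, before *Lamb3*, differed by -0.40 (SE 0.38, limma adjusted p = 0.933). In the liver after SBR, 5 of 13 such genes were called higher, where 37.4% of all genes were, among them *Cxcl14* with a difference of 1.81 (SE 0.20, limma adjusted p = 1.21e-06), and 1, *Hsd11b1*, was called lower, where 4.47% of all genes were, with -1.08 (SE 0.19, limma adjusted p = 0.000208).

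The list of genes of regenerating epithelium, a state in which the gut lining takes on fetal-like expression, gave 0 calls by limma in the ileum of SBR vehicle mice, with 2 of 8 tested at an unadjusted p under 0.05 and a median of 0.77 against 0.07 over all genes, and 2 calls, both higher, in SBR WUSTL0717 mice against sham, with a median of 0.66. *Ereg* and *Areg*, ligands of the epidermal growth factor receptor, differed by 0.81 (SE 0.26, limma adjusted p = 0.312) and 1.39 (SE 0.50, limma adjusted p = 0.392) in SBR vehicle mice. They were the genes called in SBR WUSTL0717 mice, with differences of 1.60 (SE 0.26, limma adjusted p = 0.0109) and 2.48 (SE 0.50, limma adjusted p = 0.0278), where 1.66% of genes were called higher. *Ereg* was also higher without overlap with WUSTL0717 than with vehicle in the ileum, as were 2.56% of genes, with a difference of 0.79 (SE 0.24, limma adjusted p = 0.501). In the duodenum 6 of the 8 were lower after SBR, with a median of -0.83 against -0.36 over all genes.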

How the data were processed

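RNA was sequenced from ribosomal RNA-depleted libraries of ileum, duodenum and liver. The authors aligned reads with STAR to GRCm38 with Ensembl genes, counted uniquely aligned reads with featureCounts, scaled with edgeR's TMM and deposited log2 TPM values of 15958 genes after ComBat adjustment for batch effects. The labels put intestinal libraries in 1 batch and liver libraries in another. The study's supplement describes the adjustment as one for batch effects between experimental groups. Which batches it used was not given in the sources used here, and its effect on the group differences was not tested. The constant added before the logarithm was not given in the sources used here and was taken as 1 to return to TPM for pseudocounts and marker sums. The depth of each library is unknown, and the number of libraries sets the precision.

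Each tissue was fitted apart on all genes with a mean log2 value of at least 1, with limma 3.58.1 in R 4.3.3 (a variance trend, 1 mean a group, 95% intervals) and Benjamini-Hochberg adjustment over all tested genes at 0.05. Ileum and duodenum were compared in 1 fit of both. Two-sided exact permutation tests over libraries were run for single genes. Because ileal libraries chose the 3 genes, no test is given for the 3 genes, or for genes picked by likeness to them, in the text for a contrast that uses ileal libraries. Summaries and figures were made in Python 3.11.15 (numpy 2.4.6; matplotlib 3.10.9; pandas 2.3.3). The scripts were tested on simulated data. Libraries were treated as separate samples. Where nothing says that they came from separate mice, p-values measure only the spread between libraries, which may be technical.

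The 3 genes and all gene lists were chosen with earlier results of these data known. Named from each list were at most 3 genes by p after SBR and 2 with WUSTL0717, beside *Lama3* and *Chdh*, then the nearest 2 tested genes on each side and, by likeness, the 5 highest and 3 lowest r; some genes under these rules are not reported here. Alternatives were other filters, pseudocounts of 5 and 0.1, median centring, quantile normalization, library weights, no variance trend, a replicate block, the compared groups alone, an unmoderated test and leaving out each library.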

Additional observations from a re-analysis of the deposited data

Results flagged for a closer look

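In 21 groups of 4 to 8 libraries, 3 held a library far from the others of its group by Dixon's test, and chance gives about 1 in 20. *Gimd1* in the ileum of SBR WUSTL0717 mice was highest in replicate 4, at 1.38, where the other 3 stood between 0.62 and 0.71. *Gimd1* in the liver of SBR vehicle mice was lowest in replicate 2, at 2.19, where the other 7 stood between 3.33 and 3.58. *Lamb3* in the liver of sham mice was lowest in replicate 2, at 3.05, where the other 4 stood between 3.50 and 3.65.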

How the results depend on the processing

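Of 241 alternative values for contrasts without ileal libraries, 218 kept their direction and, where tested, their side of the threshold, 7 newly passed it, 3 no longer passed it and 13, in 5 comparisons of a gene, changed sign. Of 226 for contrasts with ileal libraries, which are given without a test, 5, in 2 comparisons, changed sign. Causes were not tested except where named. For the untested ileal difference between SBR vehicle and sham, a pseudocount of 5 gave 2.36 for *Slc25a48*, -1.79 for *Gimd1* and 1.85 for *Lamb3*, and 0.1 gave -3.71 for *Gimd1* and 2.91 for *Lamb3*. *Lamb3* with WUSTL0717 against vehicle in the ileum was -0.0018 under quantile normalization, -0.027 with library weights and -0.086 to 0.19 leaving out each library. In the duodenum after SBR, *Gimd1* was 0.25 with median centring, 0.16 with quantile normalization, 0.011 with the replicate block and -0.40 to 0.10 leaving out each library, and *Slc25a48* was 0.15 with median centring. *Lamb3* there was 1.28 with library weights and 0.90 to 1.30 leaving out each library. *Slc25a48* with WUSTL0717 against vehicle in the duodenum was -0.23 to 0.053 leaving out each library, and the *Lamb3* difference of effects between regions -0.29 to 0.060. In the liver after SBR, *Slc25a48* was -0.49 with median centring and with quantile normalization and -0.38 to -0.085 leaving out each library, *Gimd1* was 0.62 with library weights and 0.32 to 0.56, and *Lamb3* was 0.15 with median centring and with quantile normalization and 0.34 to 0.50. With WUSTL0717 against vehicle in the liver, library weights gave -0.21 for *Gimd1* and -0.15 for *Lamb3*, and leaving out each library gave -0.13 to 0.10 and -0.050 to 0.14. *Lamb3* in the ileum against the duodenum was 0.25 with median centring and with quantile normalization.

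Genes called numbered 55 in the ileum after SBR, 5 to 279 over other settings and 3 to 38 leaving out each library, the fewest without sham replicate 2. Other settings called 1 to 18 genes in place of 11 with WUSTL0717 in the ileum, 0 to 2497 in place of 0 after SBR in the duodenum (589 without SBR vehicle replicate 1), 2 to 85 in place of 39 with WUSTL0717 there, 4180 to 10462 in place of 6663 after SBR in the liver, 0 to 3133 in place of 652 with WUSTL0717 there, 4737 to 9811 in place of 8895 between regions and 2 to 9 in place of 4 for the difference of effects. Replicate numbers were not taken as pairs: correlations of the deviations of same-numbered libraries were of mixed size, at -0.04, -0.32, -0.01 and -0.03 for ileal SBR vehicle and WUSTL0717 libraries, at 0.36, 0.07 and 0.45 for sham ileum and duodenum, at 0.13, -0.00, -0.14 and 0.08 for these regions in SBR vehicle and at -0.08, 0.32, -0.07 and 0.21 in SBR WUSTL0717 mice. With the replicate block, calls numbered 12 in the ileum after SBR, 1 with WUSTL0717 in the ileum and 8 with WUSTL0717 in the duodenum, and *Lamb3* in the duodenum after SBR was 1.01 (limma adjusted p = 0.449). The depth of the libraries is unknown, so how far it limits low values such as duodenal *Slc25a48* was not tested.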
